A study of Mus musculus with 12 samples.

Results

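The transcripts described here are those of 10 neuropeptide precursor genes of the hypothalamus and of temperature control: Oxt, Avp, Trh, Crh, Adcyap1, Pomc, Agrp, Cartpt, Npy and Sst. They were chosen by gene symbol from the merged count table, in which they are 10 of 25239 genes, and the rule itself uses no measured value. The study asked what periodic heat does to the transcriptome of aged animals, using male wild-type C57BL/6J mice of 24 months. Heat stress mice were kept at 40 °C and 60% relative humidity for 3 hours a day over 15 days, control mice were left without this heat, and the temperature at which controls were housed is not given in the sources used here. Brain and liver each gave 3 control and 3 heat stress libraries of polyadenylated RNA, named below by group and replicate number, with n = 3 mice per group. RNA came from a piece of frozen tissue of at most 25 mg, and the region of the brain that was cut is not given in the sources used here.

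Neuropeptides are made as longer precursors, cut by proprotein convertases in dense-core vesicles, and released to act on G protein-coupled receptors. Some of the 10 precursors are made by small groups of hypothalamic neurons: oxytocin and vasopressin in the paraventricular and supraoptic nuclei, and Agrp in the arcuate nucleus. Others, above all Sst and Npy, are also made by GABAergic interneurons scattered through cortex, hippocampus and striatum, so their transcripts are found in many brain regions.

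The 6 brain libraries held between 10552686 and 14597197 counts. Values are given as normalized counts, meaning CPM, the counts scaled to a common library size, after edgeR's trimmed mean of M values (TMM) scaling. Genes known from the hypothalamus were at low levels that differed between libraries. The summed level of 14 hypothalamic transcription factors was 5.14, 33.2 and 28.1 in control replicates 1, 2 and 3 and 34.3, 13.0 and 19.1 in heat stress replicates 1, 2 and 3. Six3 made up much of this sum, and the other 13 genes summed to 1.78, 19.3 and 9.38 over the controls, against 19.4, 6.80 and 4.62 over the heat stress libraries. In control replicate 1, 7 of these 14 genes had no count, against 0 of 14 in heat stress replicate 1. A piece of brain that holds fewer cells of a type and one whose cells hold less of an RNA cannot be told apart in bulk tissue.

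None of the 9 precursors that could be tested differed between heat stress and control brain beyond the spread between mice. Agrp did not pass the filter on low counts, and its counts are given below. With p-values from the quasi-likelihood test of edgeR and Benjamini-Hochberg adjustment across the 14806 genes tested, 0 of the 9 had an adjusted p under 0.05, where the share among all tested genes was 0%. At an unadjusted p under 0.05 the count was also 0 of 9, where 20.1% of all tested genes passed. The control and heat stress libraries did not overlap for 0 of the 9, where they did not overlap for 24.9% of all tested genes. DESeq2 on the same 6 libraries gave 7 members an adjusted p (not Pomc, Crh or Agrp), and 0 of the 7 were under 0.05, where 2.70% of the genes given a p passed. The estimates were above control for 3 members and below it for 6, with a median log2 fold change of -0.24, against -0.003 over all tested genes. For 4 of the 9 (Oxt, Avp, Trh and Sst) the whole heat stress range lay inside the control range.

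**Figure D1:**
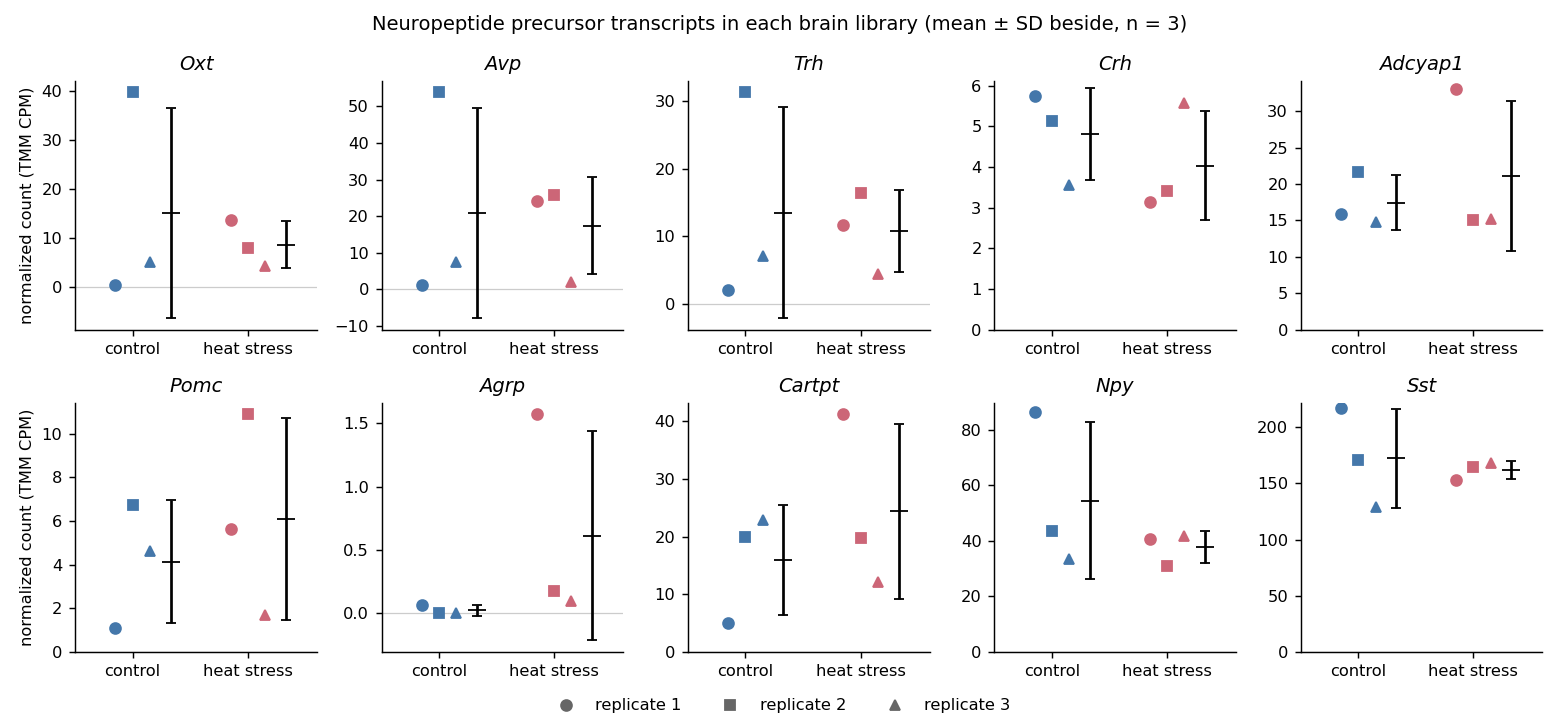
Normalized count (y axis, CPM after TMM scaling, linear) of each of the 10 precursors in the 3 control (blue) and 3 heat stress (red) brain libraries, with marker shape for the replicate number and the mean ± SD in black beside each group. Control replicate 1 lies lowest for Oxt, Avp, Trh, Pomc and Cartpt and highest for Crh, Npy and Sst, and the groups of every tested gene overlap.

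Oxt and Avp, which encode the precursors of oxytocin and of the antidiuretic hormone vasopressin, lie tail to tail on chromosome 2. In mm10 with GENCODE M21, Oxt is at chr2:130576173-130577054 on the plus strand and Avp at chr2:130580620-130582554 on the minus strand. Trh, the precursor of thyrotropin-releasing hormone, which drives the thyroid axis that sets metabolic heat production, is at chr6:92242061-92244650 on the minus strand. The 250 bases before the RefSeq start of these 3 genes are printed because their transcripts shared much of their order over the libraries, given below, and had the largest within-group SD, pooled over both groups, of the 9 tested members. They come from RefSeq on GRCm38.p6, at chr2:130575919-130576168 (plus strand) for Oxt, chr2:130582589-130582838 (minus strand) for Avp and chr6:92244651-92244900 (minus strand) for Trh. Each reads 5′ to 3′ along the gene's own strand. Capitals mark matches, on either strand, to the cyclic AMP response element TGACGTCA, its half-site TGACG, the nuclear receptor half-site AGGTCA or the heat shock element GAANNTTC, where the full cyclic AMP element also holds its half-site on both strands.
Oxt: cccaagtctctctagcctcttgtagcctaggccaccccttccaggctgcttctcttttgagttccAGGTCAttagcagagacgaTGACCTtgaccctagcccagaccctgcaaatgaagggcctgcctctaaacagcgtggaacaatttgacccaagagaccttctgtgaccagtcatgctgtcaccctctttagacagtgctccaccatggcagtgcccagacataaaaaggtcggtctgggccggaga
Avp: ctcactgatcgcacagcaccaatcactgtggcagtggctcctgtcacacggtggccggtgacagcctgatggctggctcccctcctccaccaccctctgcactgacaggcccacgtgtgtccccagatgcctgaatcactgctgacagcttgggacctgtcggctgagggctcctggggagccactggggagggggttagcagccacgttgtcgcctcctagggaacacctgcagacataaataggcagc
Trh: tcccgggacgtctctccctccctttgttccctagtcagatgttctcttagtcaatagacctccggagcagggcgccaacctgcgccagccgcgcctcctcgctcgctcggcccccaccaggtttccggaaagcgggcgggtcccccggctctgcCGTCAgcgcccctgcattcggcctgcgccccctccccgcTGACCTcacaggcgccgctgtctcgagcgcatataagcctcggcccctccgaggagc

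Oxt held a pair of nuclear receptor half-sites on opposite strands, at 185 to 180 and 166 to 161 bases before the start. Trh held 1 such half-site at 57 to 52 bases and a cyclic AMP half-site at 96 to 92 bases before its start. In the Avp window none of the 4 motifs was found, which says only that these letters are not in it. Of 32851 promoters of the same length, 14.02% held the nuclear receptor half-site, 17.8% the cyclic AMP half-site, 1.55% the full cyclic AMP element and 6.69% the heat shock element. Among the 8 members with an entry, the counts were 3 for the nuclear receptor half-site (with Pomc), 4 for the cyclic AMP half-site (with Adcyap1), 2 for the full element (Sst and Cartpt) and 1 for the heat shock element (Cartpt). The percentages count promoter entries, while the members were counted once per gene. Adcyap1 had more than 1 window, and these overlap, so the 2 measures are not fully alike. The full element of Sst lay 48 to 41 bases before the RefSeq start. These matches are descriptions of the windows and were not tested as sites.

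For Oxt the control libraries held 6, 456 and 62 counts, or 0.411, 39.8 and 5.01 normalized counts. Heat stress libraries held 148, 89 and 45 counts, or 13.6, 7.96 and 4.25 normalized counts. The highest and the lowest library were thus both controls, with the heat stress mice in between. The group means were 15.1 ± 21.5 in control and 8.62 ± 4.74 in heat stress (SD, n = 3). The log2 fold change was -0.78 with a standard error of 1.31 and a 95% interval from -4.03 to 2.46 (edgeR, adjusted p = 0.766). Without control replicate 2, the library with the most Oxt, the estimate was 1.70.

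Avp was found at 17, 618 and 91 counts in the controls, or 1.16, 53.9 and 7.36 normalized counts. In heat stress it had 263, 287 and 22 counts, or 24.3, 25.7 and 2.08 normalized counts. Control replicate 2 was again highest and control replicate 1 lowest, and heat stress replicate 3 stood well below the other two of its group. Means were 20.8 ± 28.8 and 17.3 ± 13.2, and the log2 fold change of -0.24 had a standard error of 1.40 and a 95% interval from -3.76 to 3.28 (edgeR, adjusted p = 0.943). The estimate was 2.05 without control replicate 2.

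The share of Oxt in the sum of Oxt and Avp counts is taken within a library and so does not depend on its depth. It was 26.1% in control replicate 1 (95% Wilson interval 12.5 to 46.5%, from 23 counts), 42.5% in control replicate 2 (39.5 to 45.4%) and 40.5% in control replicate 3 (33.1 to 48.4%). In heat stress replicates 1, 2 and 3 the share was 36.0% (31.5 to 40.8%), 23.7% (19.7 to 28.2%) and 67.2% (55.3 to 77.2%). Heat stress mice held both the lowest and the highest share, with intervals that do not overlap each other, so the shares differed between mice of that group beyond counting error. These intervals cover counting error only. The group means, 36.4% ± 8.95 and 42.3% ± 22.4 (SD, n = 3), differed by 5.93 percentage points, and the exact two-sided permutation test gave p = 0.9, where 0.1 is the smallest p that 3 against 3 allows. Without heat stress replicate 3 the difference was -6.52 percentage points.

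**Figure D2:**
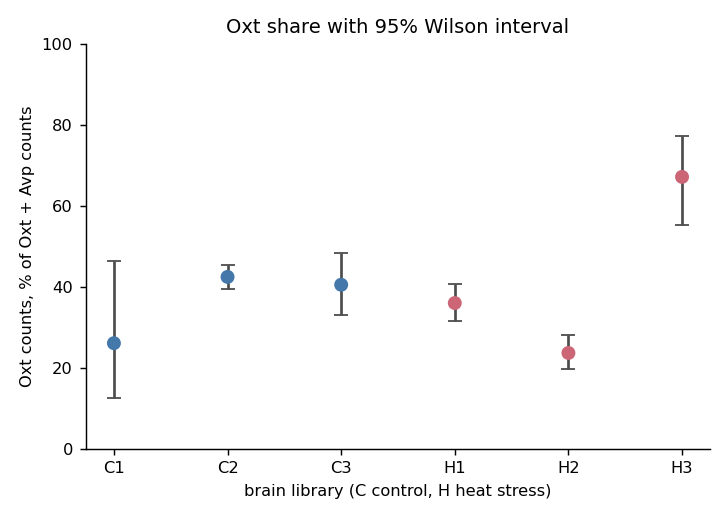
Oxt counts as a percentage of Oxt plus Avp counts (y axis) in each brain library (x axis, C control in blue, H heat stress in red), with 95% Wilson intervals as bars. The heat stress libraries span 23.7 to 67.2%, around all 3 controls.

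Among the releasing hormones, Trh held 30, 359 and 87 counts in control libraries, or 2.05, 31.3 and 7.03 normalized counts. Heat stress libraries had 126, 183 and 46, or 11.6, 16.4 and 4.34 normalized counts. All heat stress values fell between the lowest and the highest control, as for Oxt and Avp. With means of 13.5 ± 15.6 and 10.8 ± 6.06, the log2 fold change was -0.30, its standard error 0.94 and its 95% interval -2.55 to 1.95 (edgeR, adjusted p = 0.881). It was 1.26 without control replicate 2.

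Crh, the precursor of the hormone that starts the pituitary-adrenal stress response and also a product of cortical interneurons, is at chr3:19693401-19695396 on the minus strand. Its controls held 84, 59 and 44 counts, or 5.75, 5.14 and 3.56 normalized counts, and the heat stress libraries 34, 38 and 59 counts, or 3.14, 3.40 and 5.57. Unlike Trh, it was highest in control replicate 1, and its level varied less between mice than that of Trh. Means were 4.82 ± 1.13 and 4.03 ± 1.33, and the log2 fold change was -0.26 with a standard error of 0.29 and a 95% interval from -0.92 to 0.40 (edgeR, adjusted p = 0.637). The estimate was -0.56 without heat stress replicate 3 and -0.11 without control replicate 1.

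Adcyap1 encodes the precursor of PACAP, a peptide that marks warm-activated neurons of the preoptic area and is also made in cortex, and it is at chr17:93199017-93206537 on the plus strand. Control libraries held 231, 249 and 183 counts, or 15.8, 21.7 and 14.8 normalized counts, and heat stress libraries 358, 169 and 161 counts, or 33.0, 15.1 and 15.2. Heat stress replicate 1 stood above all others, and the remaining 2 heat stress libraries lay within the controls. The log2 fold change was 0.28 with a standard error of 0.30 and a 95% interval from -0.40 to 0.96 (edgeR, adjusted p = 0.625), and it was -0.21 without heat stress replicate 1.

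The arcuate precursors act on feeding and energy use in opposite directions. Pomc, at chr12:3954951-3960642 on the plus strand, is the precursor of the melanocortins that lower food intake, and in the pituitary of ACTH. It held 16, 77 and 57 counts in control libraries, or 1.10, 6.71 and 4.61 normalized counts, and 61, 122 and 18 counts in heat stress, or 5.63, 10.9 and 1.70. The highest value was in heat stress replicate 2 and the lowest in control replicate 1, and each group held 1 low library. Its log2 fold change was 0.58, with a standard error of 0.71 and a 95% interval from -1.05 to 2.21 (edgeR, adjusted p = 0.668). Heat stress replicate 2 was also the library with the most pituitary transcripts, where Gh, growth hormone, had 157 counts against 0 to 26 elsewhere and Prl, prolactin, had 38 against 0 to 18. Without this library the Pomc estimate was -0.15. The part of pituitary RNA in the Pomc level was not tested.

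Agrp, the antagonist of melanocortins at their receptors, was at or near 0 in most libraries. It had 1, 0 and 0 counts in control libraries and 17, 2 and 1 counts in heat stress libraries. Heat stress replicate 1 alone held most of the counts. As normalized counts the libraries were at 0.068, 0 and 0 against 1.57, 0.179 and 0.094, so the groups did not overlap after scaling, although a count of 1 occurred in both. A count of 0 in a control library allows up to 0.262 normalized counts in control replicate 2 and 0.243 in control replicate 3. Over the groups, 20 counts against 1 gave a ratio of rates per total count of 23.7 with an exact interval from 3.78 to 980, which covers counting error and not the spread between mice. Without heat stress replicate 1 the ratio was 5.32 from 3 counts against 1, with an interval from 0.427 to 279. When no filter on low counts was applied, edgeR gave Agrp a log2 fold change of 4.09 and an adjusted p of 0.180, and DESeq2 gave 4.45 with no adjusted p. That same heat stress library held the most counts of 2 precursors of the lateral hypothalamus: Pmch, the precursor of melanin-concentrating hormone, had 2191 counts there against 6 to 321 in the others, and Hcrt, the precursor of the orexins, had 165 against 0 to 46. Their part in the Agrp counts was not tested. The annotated Agrp gene, chr8:105566698-105637393 on the minus strand, overlaps Gm5914 on its own strand and Ctcf and Ripor1 on the other, and whether the counting used strand is not stated, so its few counts may include reads of a neighbour.

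Cartpt encodes the CART precursor, made in the arcuate and lateral hypothalamus and in striatum, and is at chr13:99898489-99901091 on the minus strand. Its counts were 73, 229 and 283 in control libraries and 448, 221 and 128 in heat stress libraries. As normalized counts these were 5.00, 20.0 and 22.9 against 41.3, 19.8 and 12.1. The extremes were control replicate 1 and heat stress replicate 1. Of the other 4 libraries, which lay between them, both controls were above both heat stress libraries, with 20.0 next to 19.8. The log2 fold change was 0.62 with a standard error of 0.62 and a 95% interval from -0.84 to 2.09 (edgeR, adjusted p = 0.598). Leaving out heat stress replicate 1 or control replicate 1 gave the lower estimates of the 6 that leave out 1 library, which ran from 0.004 to 0.99.

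Npy, the precursor of neuropeptide Y, which raises feeding from the arcuate nucleus and is abundant in cortical interneurons, is at chr6:49822710-49829507 on the plus strand. Control libraries held 1265, 500 and 413 counts, or 86.6, 43.6 and 33.4 normalized counts. Heat stress libraries held 440, 347 and 442 counts, or 40.6, 31.0 and 41.7 normalized counts. Control replicate 1 was far above the other 5, which lay close together. The group means were 54.5 ± 28.3 and 37.8 ± 5.86, and the log2 fold change of -0.53 had a standard error of 0.32 and a 95% interval from -1.25 to 0.18 (edgeR, adjusted p = 0.364). This was the smallest adjusted p of the 9. It rested on that library, since the estimate was -0.03 without it.

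Sst, the precursor of somatostatin, which inhibits growth hormone release and marks a class of cortical interneurons, had the highest level of the 10 and, pooled over both groups, the smallest within-group SD of the 9 tested. The gene is at chr16:23889573-23890958 on the minus strand. Control libraries held 3168, 1962 and 1591 counts, or 217, 171 and 129 normalized counts, and heat stress libraries 1663, 1838 and 1780 counts, or 153, 164 and 168. All 3 heat stress mice fell inside the control range. With means of 172 ± 44.2 and 162 ± 7.60, the log2 fold change was -0.09, its standard error 0.18 and its 95% interval -0.49 to 0.31 (edgeR, adjusted p = 0.80).

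**Figure D3:**
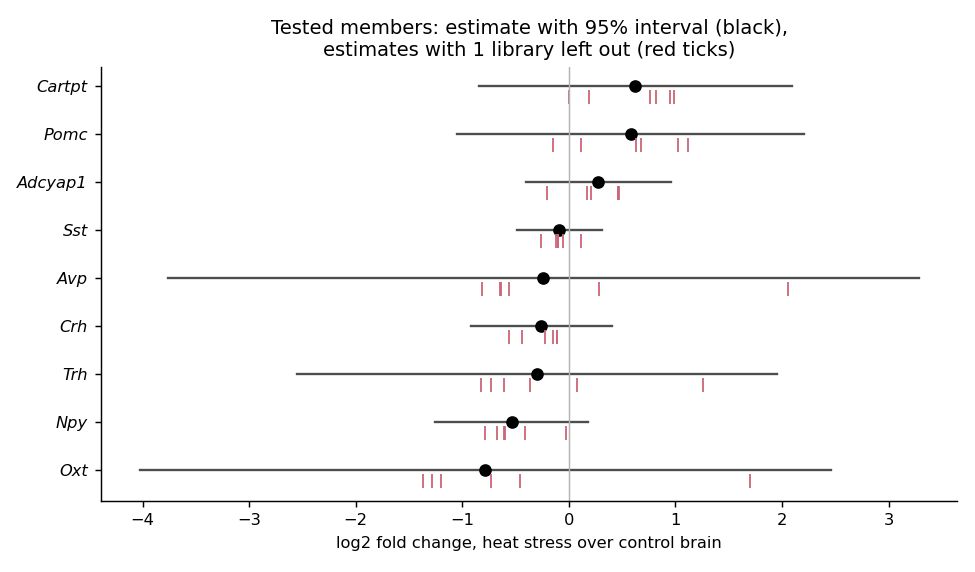
Log2 fold change of heat stress over control brain (x axis) for the 9 tested precursors, with black points and lines for the edgeR estimate and its 95% interval and red ticks for the estimate with each of the 6 libraries left out in turn. Every interval spans 0, and the narrowest is that of Sst (-0.49 to 0.31) and the widest that of Avp (-3.76 to 3.28).

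The spread between mice of a group set apart Oxt, Avp and Trh from Sst and Crh. Between the lowest and the highest control, normalized counts differed 96.7-fold for Oxt, 46.3-fold for Avp and 15.2-fold for Trh. They differed 6.13-fold for Pomc and 4.58-fold for Cartpt, but 1.69-fold for Sst, 1.62-fold for Crh and 1.47-fold for Adcyap1. In heat stress mice the same ratio was 12.4-fold for Avp, 6.43-fold for Pomc, 3.77-fold for Trh, 3.42-fold for Cartpt and 3.22-fold for Oxt, and 1.09-fold for Sst. As a measure over both groups, the pooled within-group SD of log2 normalized counts was 2.37 for Avp, 2.24 for Oxt, 1.52 for Trh, 1.29 for Pomc and 1.05 for Cartpt. It was 0.53 for Npy, 0.50 for Adcyap1, 0.39 for Crh and 0.27 for Sst. The median over the 9 members was 1.05, against 0.198 over all tested genes. These SDs include counting error, which weighs more at low counts, and the comparison was not matched for level. A wide spread was not particular to the members. The median was 1.29 over the 6 tested hypothalamic transcription factors, and Pmch (3.14) and Hcrt (2.68) lay above every member. Of all tested genes, 99.97% had a smaller SD than Oxt, 93.6% a smaller one than Npy, 85.8% than Crh and 69.2% than Sst. The standard errors above follow the same order.

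**Figure D4:**
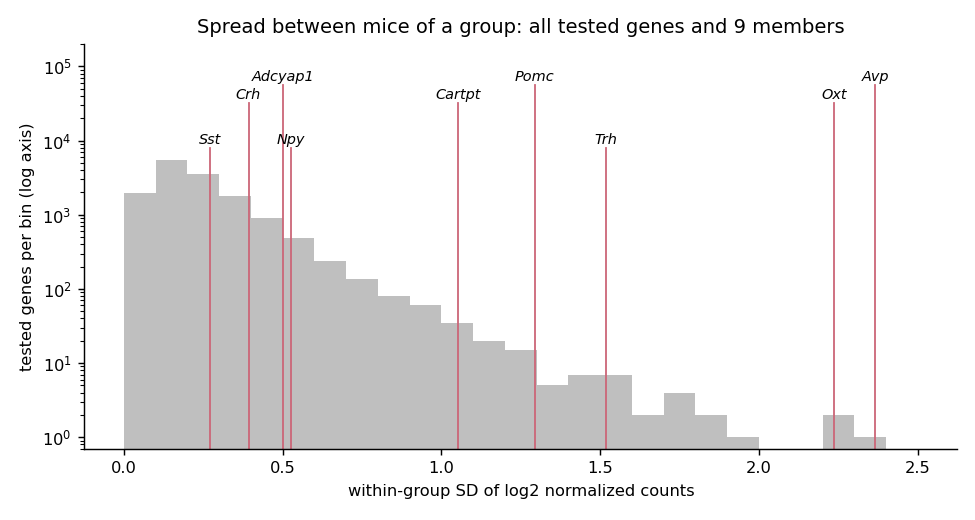
Number of tested genes (y axis, log scale) by the pooled within-group SD of their log2 normalized counts over the 6 brain libraries (x axis), in grey bins of 0.1, with red lines for the 9 tested precursors. Sst lies at 0.27 near the bulk of genes, and Oxt and Avp lie beyond 2, where few genes do. The tested genes Pmch (3.14) and Hcrt (2.68) lie beyond the last bin, which ends at 2.5.

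Oxt, Avp, Trh and Pomc shared much of their order over the libraries, and Sst, Npy and Crh stood at the other end in control replicate 1. The first 4 were all lowest in control replicate 1, with heat stress replicate 3 next and control replicate 3 after it, and Oxt, Avp and Trh were highest in control replicate 2. Sst, Npy and Crh were highest in control replicate 1, where those 4 and Cartpt were lowest. The other libraries were not reversed, since control replicate 2 was next to highest for Sst and Npy as well. The sum of Oxt, Avp and Trh was 3.63, 125 and 19.4 normalized counts in the controls and 49.5, 50.0 and 10.7 in heat stress. It made up from 1.08% of the summed normalized counts of the 10 members in control replicate 1 to 31.8% in control replicate 2. Sst and Npy together made up 90.6% of the members' sum in the former and 54.6% in the latter. The sum of all 10 members varied less, from 227 to 393.

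Markers of brain regions also differed between libraries, and some lists shared part of these orders while others peaked elsewhere. The part of region in the members' levels was not tested. Sim1 and Otp, transcription factors needed for the neurosecretory neurons of the paraventricular nucleus, had 1, 41 and 19 counts and 13, 77 and 21 counts in the controls. In heat stress they had 37, 6 and 1 counts (Sim1) and 44, 21 and 5 counts (Otp). Both were thus highest in control replicate 2 by normalized count and among the lowest in control replicate 1, as Oxt, Avp and Trh were. Six3 and Nkx2-1 were also lowest in control replicate 1, at 49 and 3 counts, but Six3 was highest in control replicate 3 and Nkx2-1 in heat stress replicate 1. The sum of all 14 factors was lowest in control replicate 1, at 5.14. It was nearly level in heat stress replicate 1 (34.3) and control replicate 2 (33.2), the highest libraries. Not every factor was lowest in control replicate 1, since Otp and Foxb1 were lowest in heat stress replicate 3. Sim1 and Otp were named after their values were seen. Markers of excitatory neurons of cortex and hippocampus (10 genes) summed to 1957, 1321 and 1116 in the controls and 996, 1178 and 1330 in heat stress, and were highest in control replicate 1, as Sst, Npy and Crh were. The 9 striatal markers summed to 533, 923 and 519 against 1249, 892 and 1969, and 8 of the 9 were higher in heat stress at an unadjusted p under 0.05, with 0 at an adjusted p, where 10.0% of all tested genes were higher and 10.0% lower at an unadjusted p. Choroid plexus markers (8 genes) summed to 1539, 1254 and 2494 against 653, 1132 and 262, and 4 of the 8 were lower at an unadjusted p. For thalamus and habenula (9 genes) the sums were 137, 174 and 551 against 322, 158 and 102, with 3 of the 9 lower. Interneuron markers (18 genes), some of which share cells with Sst and Npy, summed to between 1063 and 1359 in all 6 libraries. General neuronal genes (9) summed to between 5837 and 8077. Both of these lists, and the precursor processing list (17 genes, 6525), were also highest in control replicate 1, so a peak in that library was not particular to the cortical markers. The pituitary list (10 genes) summed to 0.753, 1.39 and 4.53 against 0.922, 19.7 and 0.189.

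**Figure D5:**
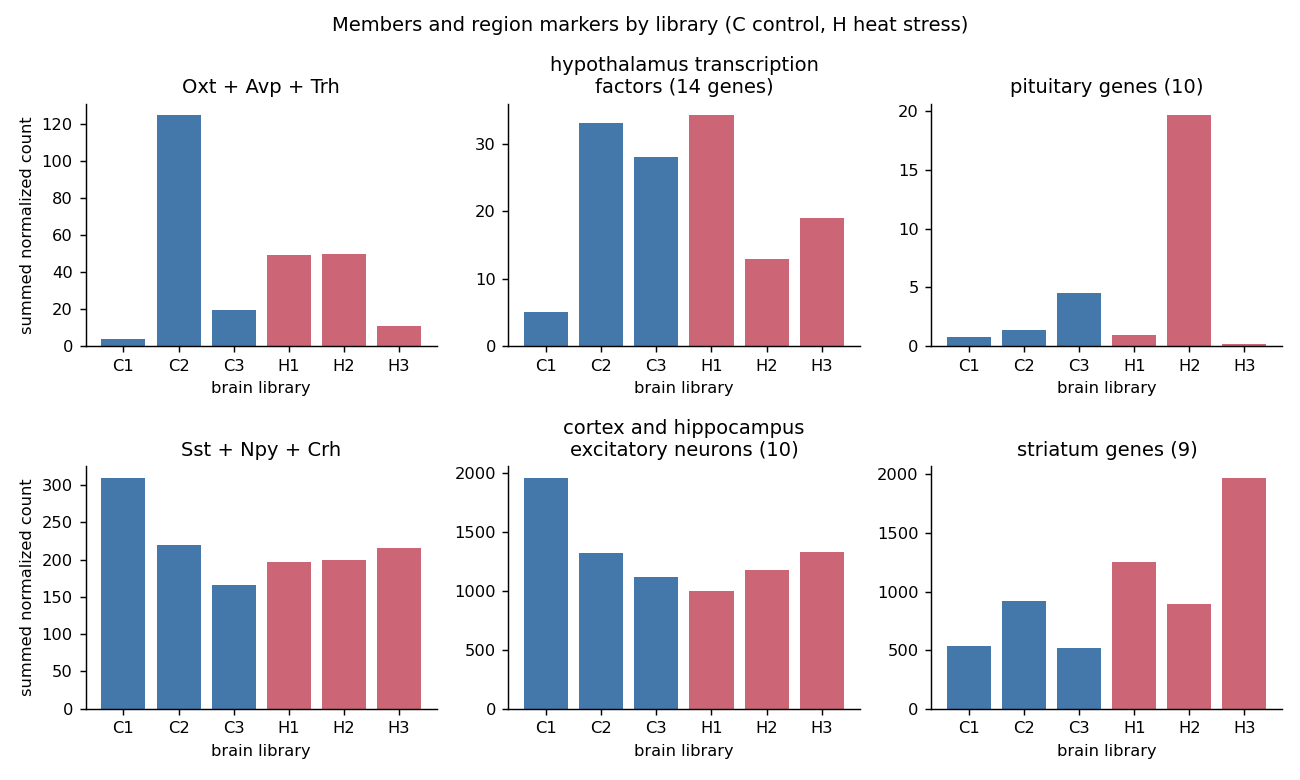
Summed normalized counts (y axes, from 0) in each brain library (x axes, C control in blue, H heat stress in red) for 2 groups of members and 4 lists of region markers. Oxt, Avp and Trh peak in control replicate 2 at 125 and are lowest in control replicate 1 at 3.63, the library where cortical markers are highest at 1957.

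Per kilobase of exon, which allows levels to be compared between genes, Sst was first at a mean of 232 normalized counts per kilobase over the 6 libraries. Npy followed at 81.6, then Avp at 33.0, Oxt at 22.05, Cartpt at 15.8, Trh at 8.76, Adcyap1 at 5.10, Pomc at 3.88, Crh at 3.35 and Agrp at 0.314. Sst was first and Agrp last in each of the 6 libraries. The places between were not fixed: Avp ranked 2 in control replicate 2 but 7 in heat stress replicate 3, and Crh ranked 3 in control replicate 1 but 9 in 4 other libraries. The order of Avp, Oxt and Cartpt thus did not hold beyond the spread between mice.

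The receptors of these peptides were measured in the same fit. Of 26 receptor and binding protein genes 19 were tested, 0 had an adjusted p under 0.05, and 1 was lower at an unadjusted p, where 10.0% of all tested genes were. That gene was Sstr4, a somatostatin receptor, at 5.00, 4.79 and 4.29 normalized counts in the controls and 1.94, 1.88 and 3.59 in heat stress. It was 1 of 2 genes among the 19 whose groups did not overlap, where 24.9% of all tested genes had such groups, and its log2 fold change was -0.93 with a standard error of 0.29 (edgeR, adjusted p = 0.172). The PACAP receptor Adcyap1r1, highest of the list at a mean of 214 normalized counts, also had groups that did not overlap, at 197 to 206 in heat stress against 210 to 245 in control, with a log2 fold change of -0.17 (edgeR, adjusted p = 0.402). Next by level were Vipr1, Sstr3 and Sstr1, at means of 24.5, 24.5 and 23.8 normalized counts, and these overlapped between groups. Across the list the median log2 fold change was -0.26, and 16 of the 19 estimates were below 0. Over all tested genes the median was -0.003, and 7449 of 14806 estimates were below 0. The oxytocin receptor Oxtr stayed between 5.50 and 11.9 normalized counts in all 6 libraries. Vasopressin receptors were near the floor, Avpr1b and Avpr2 with 1 count each in all and Avpr1a with 2 to 13 counts a library. Mc4r, a melanocortin receptor that Pomc products and Agrp share, held 16 to 24 counts a library. Mc3r, another melanocortin receptor, held 3 to 12 counts a library and was not tested.

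The machinery that turns precursors into peptides was abundant. Of 17 genes of precursor processing and dense-core vesicles all were tested, 0 had an adjusted p under 0.05, and at an unadjusted p 1 was higher and 3 were lower, where 20.1% of all tested genes passed in either direction, with a median log2 fold change of -0.17. Carboxypeptidase E, Cpe, was the highest at a mean of 2347 normalized counts and had a log2 fold change of 0.05 (edgeR, adjusted p = 0.880). Pcsk1n, Ptprn and Chgb followed, at 545, 389 and 327. Vgf, whose product is stored with neuropeptides, had 252, 140 and 171 normalized counts in the controls against 105, 91.8 and 120 in heat stress. Its log2 fold change was -0.83 (edgeR, adjusted p = 0.170), and it was 1 of 4 genes of the 17 whose groups did not overlap with heat stress lower. Scg5, a chaperone of proprotein convertase 2, was the 1 gene with heat stress higher and no overlap, at a log2 fold change of 0.36 (edgeR, adjusted p = 0.211), where 24.9% of all tested genes did not overlap in either direction.

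Of 32 other neuropeptide precursors, 20 were tested, 0 had an adjusted p under 0.05, and 4 were higher at an unadjusted p (Tac1, Penk, Nts and Calca), where 10.0% of all tested genes were higher and 20.1% passed in either direction, with a median log2 fold change of 0.51 against -0.24 for the 9 members. Penk, the enkephalin precursor, was the highest of the list, with means of 134 ± 55.0 in control and 278 ± 102 in heat stress and a log2 fold change of 1.06 (edgeR, adjusted p = 0.170). Tac1, the precursor of substance P, had means of 37.9 ± 21.01 and 87.5 ± 19.0 and a log2 fold change of 1.21 (edgeR, adjusted p = 0.170). Both are also among the 9 striatal markers, whose sums are given above. Cck had a log2 fold change of -0.28, with groups that overlapped. Of 10 genes linked to preoptic temperature control, 8 were tested and 1, Nts, was higher at an unadjusted p. Trpm2, a heat-sensitive channel of preoptic neurons, was first of that list at a mean of 38.9 normalized counts, with a log2 fold change of -0.28 (edgeR, adjusted p = 0.312).

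The genes most like each member over the 6 brain libraries were found by the root mean square difference of mean-centred log2 normalized counts, among genes with a mean of at least 2. For Avp the nearest were Trh (0.77), Oxt (0.82) and Sytl4 (0.84), so 2 of its 3 nearest genes were members. Oxt had Calcr (0.66), Sytl4 (0.71) and Gpr101 (0.79), and Trh had Trhr (0.53) and Gpr101 (0.54) among its 3 nearest. Trhr, the receptor for thyrotropin-releasing hormone, was also the nearest to Pomc (0.33). Far smaller differences were found for Sst, Crh and Npy, which had less spread than Oxt, Avp and Trh. The nearest were Net1 to Sst (0.05), Ptk2b to Crh (0.05) and Gm10635 to Npy (0.09). Next for Npy was Sstr2 (0.10), a somatostatin receptor. Between members, the closest pair was Crh and Sst (0.25), followed by Npy and Sst (0.32). Cartpt was nearest to Tacr3 (0.21) and Adcyap1 to Pld5 (0.20). The 6 libraries are shared by all of these comparisons, and the differences are descriptions.

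In liver the 10 precursors were near or at 0, and none passed the filter on low counts. All of them together had 30 counts over the 6 liver libraries, against 21767 over the 6 brain libraries. The sums were 11, 6 and 1 in control liver and 0, 8 and 4 in heat stress liver. Pomc and Sst reached the highest single value, 6 counts, each in a control library, and the other 8 had at most 3 counts in every library. Crh, Avp and Agrp had no count in liver.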

How the data were processed

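Polyadenylated RNA was sequenced from brain and liver of 3 control and 3 heat stress mice each. The authors deposited a merged table of raw counts per gene symbol. The submitters' processing notes name FastQC 0.11.9, Trimmomatic 0.39, HISAT2 2.2.1, featureCounts of Subread 2.0.1 and DESeq2 1.22.2 on mm10, while the study's methods describe counting in more than one way, and whether strand was used is not stated. The deposited tables of fold changes and p-values hold the authors' own comparisons and were not used. No other per-sample column was left unused. The columns of liver control replicate 2 and liver heat stress replicates 1 and 3 carry the suffix 2nd, whose meaning is not given in the sources used here. The methods give 3 animals a group, and replicates were taken as separate mice.

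Brain libraries were fitted alone in edgeR 4.0.16 (R 4.3.3), with TMM scaling, filterByExpr (minimum count 10, minimum total 15), the robust quasi-likelihood test and Benjamini-Hochberg adjustment over all tested genes, and called at an adjusted p under 0.05. Brain totals were 14597197, 12009880 and 11889432 counts in control and 10853389, 11147095 and 10552686 in heat stress. Intervals are at 95%. A level limit for 0 counts uses 3 counts. Log2 normalized counts used a prior count of 2. The scripts were tested on simulated data. Alternatives were other scaling factors, DESeq2 1.42.0, a fit of all 12 libraries, other count filters, a replicate block and leaving out each library. SciPy 1.17.1 gave the permutation tests.

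The members and gene lists were chosen with earlier results of these data known. Named genes are the 10 members, in each list the 4 with the highest mean level and the receptors, and for each member the 3 genes of most similar pattern, not all of which are reported here. Others were named because their groups did not overlap or they had an unadjusted p under 0.05, or, for region markers, Pmch and Hcrt, after their values were seen. The hepatocyte list (7 genes) shares Ttr with choroid plexus and had 4 tested genes in brain, 0 of them called at an adjusted p. Gene positions and exon lengths are from GENCODE M21, in which 24366 of 25239 symbols were found. Promoters are from RefSeq (GRCm38.p6), in which 8 of the 10 members were matched.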

Additional observations from a re-analysis of the deposited data

How the results depend on the processing

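No member had an adjusted p under 0.05 in any of the 125 tests under the alternatives that gave one, where the smallest was 0.180. DESeq2 gave none to Agrp in either of its fits, nor to Pomc and Crh on 6 libraries. Of 126 estimates of tested members, 115 kept their direction and 11 did not. Leaving out control replicate 2 turned Trh to 1.26, Avp to 2.05 and Oxt to 1.70 on the log2 scale. Leaving out heat stress replicate 3 turned Trh to 0.07, Avp to 0.28 and the difference in Oxt share to -6.52 percentage points, within a range of -6.52 to 15.2 when each library was left out. Pomc was -0.15 without heat stress replicate 2, Sst 0.11 without control replicate 1 and Adcyap1 -0.21 without heat stress replicate 1. When each library was left out in turn the lowest and highest estimates were -0.82 and 1.26 for Trh, -0.81 and 2.05 for Avp, -1.37 and 1.70 for Oxt, -0.15 and 1.11 for Pomc, -0.26 and 0.11 for Sst, -0.21 and 0.47 for Adcyap1, -0.56 and -0.11 for Crh, -0.79 and -0.03 for Npy, and 0.004 and 0.99 for Cartpt. The cause was not tested. The 3 unadjusted p under 0.05 belonged to Agrp (no filter, and DESeq2 on 6 libraries) and to Npy without control replicate 3. With the replicate block, Trh was 0.13, Avp 0.16 and Oxt 0.15, and the brain count of calls was 0. For pairing, each gene's group mean was taken off its log2 normalized counts, and control and heat stress libraries were correlated over genes on what remained. Same-numbered libraries gave -0.29, 0.19 and -0.20, and differently numbered ones from -0.21 to 0.37, so the numbers are not known to pair mice.

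Over all brain genes the count at an adjusted p was 0 with edgeR, 540 with DESeq2 on 6 libraries and 9 with DESeq2 on 12. The count at an unadjusted p, 2969, was 1655 without control replicate 1, 4027 without control replicate 2, 1665 without heat stress replicate 2, 1445 with edgeR on 12 libraries and 1694 with DESeq2 on 12. Over all liver genes the count at an adjusted p was 0 with edgeR, 2 with upper quartile factors, 63 and 163 with DESeq2 on 6 and 12 libraries, 14 with edgeR on 12, 8 without a filter, 1 with the replicate block and from 0 to 25 when each library was left out (25 without control replicate 1 and 1 without heat stress replicate 2).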
